A study of Mus musculus with 6 samples.

Results

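The vascular endothelial growth factor (VEGF) system was described here through 9 genes, chosen by name: the ligand genes Vegfa, Vegfb, Vegfc and Pgf, the receptor tyrosine kinase genes Kdr, Flt1 and Flt4, and the neuropilin co-receptor genes Nrp1 and Nrp2. All 9 were found among the 53332 gene symbols of the expression table, each once, with a deposited status that marked the estimate as usable. The RNA came from cardiac mesenchymal cells, stromal cells cultured from the heart, of which only the fraction slow to attach to polystyrene plates was taken. The sham group held 3 libraries from C57BL6/J mice that had a thoracotomy without infarction. The infarct group held 3 libraries from C57BL6/J mice whose coronary artery was occluded for 60 min and then reperfused for 28 days. Hearts of both groups were taken 28 days after surgery. All mice are labelled male and came from 1 cohort, and no age is given. Whether each library stands for its own animal or culture, or for pooled animals, is not stated in the labels, so the p-values reflect only how these libraries vary, which may be technical. The comparison asks how transcripts of this system differ in the cells with the state of the heart they were grown from.

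VEGF ligands are secreted dimers that drive the growth, survival and permeability of blood and lymphatic vessels. Vegfa encodes the main ligand for blood vessels and binds the receptors made from Kdr and Flt1, while Vegfb and Pgf, the gene of placental growth factor, encode ligands of the Flt1 receptor. Vegfc and its relative Vegfd encode the ligands of the Flt4 receptor, which is best known from lymphatic endothelium. Kdr encodes the receptor that carries most of the growth signal in endothelial cells, Flt1 a receptor that binds VEGF tightly but signals weakly and also has a soluble decoy form, and the neuropilins hold ligands next to these receptors and also bind class 3 semaphorins. In the heart, stromal cells and cardiomyocytes are known sources of ligand and endothelial cells are the main carriers of Kdr.

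Levels are in FPKM, fragment counts scaled by transcript length and by sequencing depth, and so can be set side by side between genes. Where 3 values are given for a group, they are those of libraries 1 to 3 in order. Between 12543 and 12699 genes reached 1 FPKM in a library, and the steps between its lowest values implied 22.4 to 31.0 M fragments. Transcripts that mark sex went against the label. Xist, which is transcribed from the inactive X chromosome of female cells, was at 102 to 111 FPKM in sham and 63.1 to 89.9 in infarct libraries. The Y-linked genes Ddx3y, Eif2s3y, Kdm5d and Uty did not exceed 0.225 FPKM in any sham library, but ran from 0.451 to 10.6 FPKM in the infarct libraries, highest in infarct library 1. Every infarct library thus held Xist together with Y-linked transcripts, in unequal amounts. Whether these libraries mixed cells of both sexes was not tested. The sex makeup carried by these transcripts and surgery cannot be told apart in any comparison of the groups here. With all 6 libraries affected, no result could be given without them. Most of 8 fibroblast markers were abundant in both groups, for example the collagen gene Col1a1 at 732 ± 120 FPKM in sham and 899 ± 146 FPKM in infarct libraries (errors are SD with n = 3 throughout). Lum stayed under 1 FPKM in all 6 libraries. Groups overlapped for 6 of the 8. Dcn (26.7 ± 8.01 FPKM in sham, 16.8 ± 2.64 in infarct libraries) and Thy1 (290 ± 16.3 and 225 ± 35.3) were lower without overlap, beside 4.10% of all genes tested. Of 8 macrophage markers 7 stayed under 1 FPKM in all 6 libraries, with Adgre1 and C1qa listed at 0, but Lyz2, the lysozyme gene, was at 18.7 ± 10.4 FPKM in sham and 21.5 ± 10.2 FPKM in infarct libraries. Of 8 cardiomyocyte markers 7 likewise stayed under 1 FPKM, with Myh6 and Nppa listed at 0, but Tnnt2, the cardiac troponin T gene, was at 21.3, 16.7 and 53.2 FPKM in the sham group, against 14.3, 15.1 and 20.4 FPKM in the infarct group. Its groups overlapped, and the authors' deposited table called Tnnt2 with a q-value of 0.00695.

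Of the 9 genes, 3 had groups that did not overlap, Kdr, Flt1 and Pgf, all lower in every infarct library than in any sham library, and 6 overlapped. Groups did not overlap for 7.81% of the 12720 genes tested, 4.10% as lower and 3.71% as higher. Kdr is outside those 12720 genes, which had to reach 1 FPKM in at least 3 of 6 libraries, and Pgf is among them only through its sham values, so the count describes the 9 genes and is no test of them. By limma, a moderated linear model fitted over all genes, 0 of the 8 members that entered the test passed, and 0 of 9 without the filter. In that test 0.0236% of genes passed, 0.00786% as lower, and 0.00395% passed without the filter. At an unadjusted p under 0.05 there were 2 of the 8, Pgf and Flt1, both lower, against 3.58% of all genes tested and 2.30% as lower. Because Pgf entered through its sham values alone, that count is likewise a description only. In the authors' deposited table the q-value was under 0.05 for Kdr, Flt1 and Pgf, where 1.66% of 14922 genes with usable status were called and 1.19% as lower. The 8 tested members had a median change of -0.21 in log2(FPKM + 1), infarct minus sham, with 5 negative and 3 positive.

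The transcript of Kdr was close to absent from the infarct libraries and present in every sham library. Kdr (chromosome 5, 75932827 to 75978458, minus strand, GRCm38) was at 0.939, 2.15 and 2.98 FPKM in the sham group, against 0.162, 0.0551 and 0.0688 FPKM in the infarct group. The lowest sham library stood above the highest infarct library. On the longest annotated transcript these levels correspond to about 132, 318 and 523 fragments in the sham libraries and about 24, 7 and 9.8 in the infarct libraries, so the infarct values rest on few fragments. The sham mean was 21.2 times the infarct mean (2.02 ± 1.02 against 0.0954 ± 0.0583 FPKM), and 32.6 times without infarct library 1. Kdr reached 1 FPKM in only 2 libraries and so did not enter the test over 12720 genes. Tested by limma without that filter, it had a change of -1.40 on the log2(FPKM + 1) scale (95% interval -2.05 to -0.75, infarct minus sham) and a Benjamini-Hochberg adjusted p of 0.584 over 25311 genes. The unadjusted p was 0.00188. In the authors' deposited table Kdr was called, with a q-value of 0.00178.

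Flt1 (chromosome 5, 147561604 to 147726011, minus strand) was lower in the infarct libraries as well, but remained clearly detected there. It was at 9.50, 18.7 and 20.7 FPKM in the sham group, against 3.93, 7.47 and 8.76 FPKM in the infarct group. The groups did not overlap, though sham library 1 and infarct library 3 lay close together. The sham mean was 2.43 times the infarct mean, and 2.01 to 2.93 times when single libraries were left out. The change of -1.15 (95% interval -1.98 to -0.32) had an unadjusted p of 0.0134 and did not pass limma's test over 12720 genes (adjusted p = 0.981). The authors' deposited table called Flt1 with a q-value of 0.00178. These values are for the whole gene, so membrane-bound and soluble forms were not separated.

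Flt4 (chromosome 11, 49609263 to 49652739, plus strand) overlapped between the groups. It was at 3.54, 3.06 and 4.54 FPKM in sham and 2.13, 3.96 and 2.21 FPKM in the infarct group, with infarct library 2 above 2 of the sham libraries. Its change of -0.34 had a 95% interval from -0.86 to 0.17 (adjusted p = 1.00 by limma), and the authors' deposited q-value was 0.404. Of 6 listed markers of lymphatic endothelium, 4 stayed under 1 FPKM in all 6 libraries. Among these, the lymphatic transcription factor gene Prox1 was at 0.329 to 0.597 FPKM, and Ccl21a, the gene of a lymphatic chemokine, was listed at 0 throughout. The hyaluronan receptor gene Lyve1 was at 0.507 to 4.02 FPKM, above Flt4 in sham library 2. Pdpn, the gene of podoplanin, which fibroblasts also express, was far above Flt4, at 115 ± 19.6 FPKM in sham and 135 ± 25.7 FPKM in infarct libraries. The groups overlapped for all 6 markers.

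**Figure D1:**
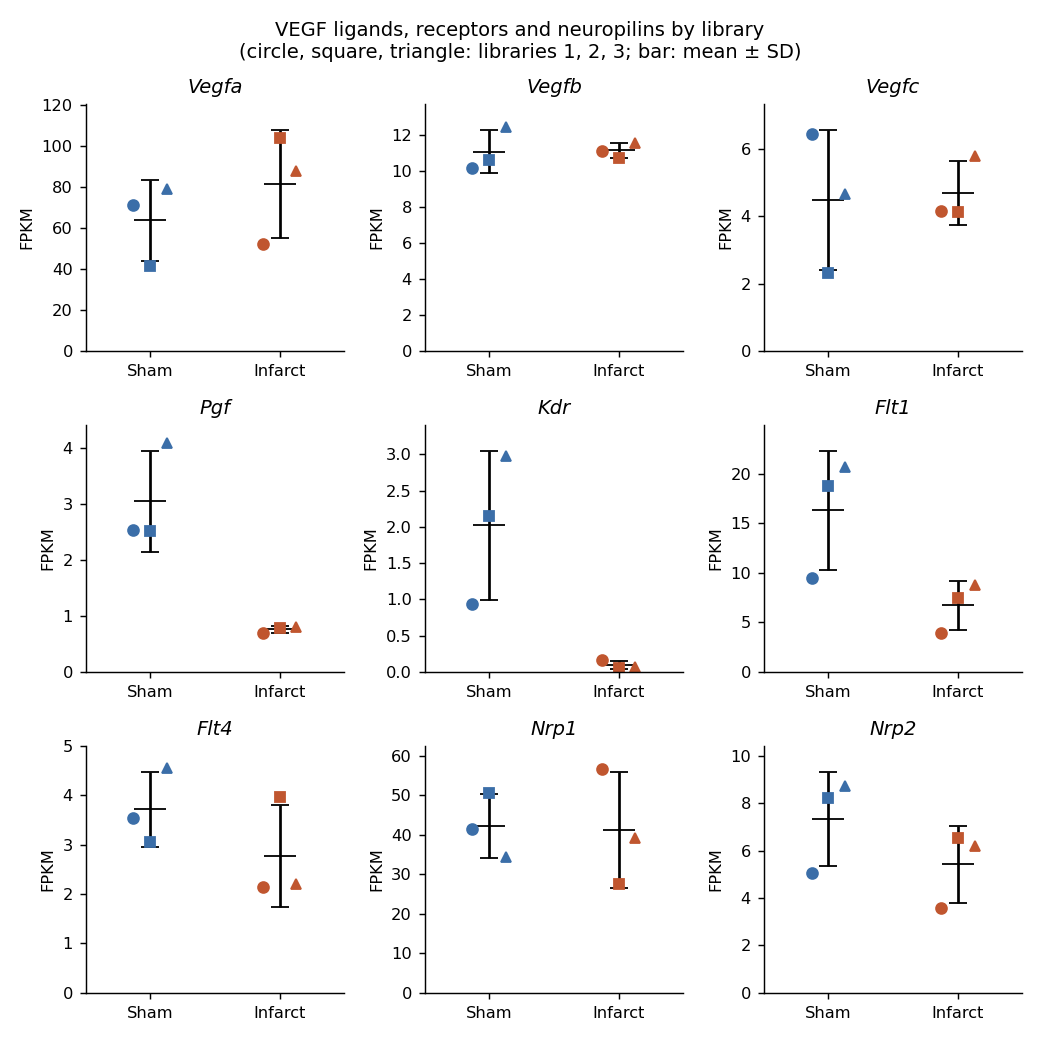
FPKM of the 9 genes in each library, with the sham libraries in blue and the infarct libraries in orange and the mean and SD as black bars. All 3 infarct points lie below all 3 sham points for Pgf, Kdr and Flt1, and the groups overlap for the other 6 genes.

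The bases before the starts of Kdr, Flt1 and Pgf are shown because these are the members whose groups did not overlap. Each run is the 250 bases before a RefSeq transcript start on GRCm38.p6, given 5′ to 3′ on the strand of the gene. Capitals mark GGAA and its reverse complement TTCC, the core letters bound by ETS factors such as Erg, which are known regulators of endothelial genes.
Kdr, chr5:75978456-75978705, minus strand: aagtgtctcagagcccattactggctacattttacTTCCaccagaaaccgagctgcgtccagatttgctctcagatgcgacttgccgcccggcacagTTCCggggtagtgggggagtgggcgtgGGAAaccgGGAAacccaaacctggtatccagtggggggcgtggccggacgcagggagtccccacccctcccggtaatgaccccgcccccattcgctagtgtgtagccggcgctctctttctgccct
Flt1, chr5:147726012-147726261, minus strand: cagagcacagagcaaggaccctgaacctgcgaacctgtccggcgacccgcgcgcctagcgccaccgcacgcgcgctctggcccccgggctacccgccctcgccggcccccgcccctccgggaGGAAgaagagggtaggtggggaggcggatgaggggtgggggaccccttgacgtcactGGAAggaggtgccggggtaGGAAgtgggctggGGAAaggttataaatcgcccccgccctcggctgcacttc
Pgf, chr12:85177314-85177563, minus strand: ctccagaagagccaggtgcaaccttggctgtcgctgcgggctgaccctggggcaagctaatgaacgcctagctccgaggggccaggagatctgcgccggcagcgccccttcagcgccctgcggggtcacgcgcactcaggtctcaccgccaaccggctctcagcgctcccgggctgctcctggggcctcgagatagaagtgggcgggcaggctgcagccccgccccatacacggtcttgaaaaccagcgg
GGAA or TTCC occurred 4 times before Kdr, 4 times before Flt1 and 0 times before either of the listed starts of Pgf. Among the members whose groups overlapped it occurred 4 times before Nrp1, 2 times before Flt4, 1 time each before Nrp2, Vegfb and Vegfc, and 6 and 2 times before the listed starts of Vegfa. At least 1 match was found in 93.4% of 32851 promoters of this length, with a median of 3, so these letters alone set no gene apart. ACGTG or CACGT, the core of the hypoxia response element, was found in 16.6% of promoters and not in these windows of the other 8 genes. For Vegfa it occurred 1 time, in the window of a start that lies within the gene (46025164 to 46025413). In the window before the outer start of Vegfa (46032378 to 46032627) it occurred 0 times. These matches are letters in a window and were not tested as binding sites.

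Endothelial transcripts were lower in the same libraries as Kdr and Flt1. Of 15 endothelial markers, a list that holds none of the 9 genes, 14 had groups that did not overlap, all lower in the infarct libraries, and Eng overlapped. Over all genes tested, 4.10% had groups that did not overlap and were lower. The test took in 14 of the 15, of which 6 (Tie1, Tek, Robo4, Erg, Mmrn2 and Vwf) reached 1 FPKM in the sham group alone and so had to be lower. The median change of the 14, -2.78 beside 0.02 over all genes tested, is therefore a description only. By limma 1 of the 14 passed, Mmrn2, the gene of an endothelial matrix protein, at 7.73 ± 2.16 FPKM in sham and 0.254 ± 0.261 FPKM in infarct libraries (adjusted p = 0.0329). It is among the 6 that had to differ, and no gene was called lower without the filter or with a pseudocount of 0.1 or 0.01. Cdh5, the gene of the endothelial cadherin that associates with the Kdr receptor, was at 17.4, 70.9 and 52.2 FPKM in the sham group, against 4.37, 0.191 and 0.756 FPKM in the infarct group. The ETS factor gene Erg was at 2.15, 11.7 and 6.27 FPKM in the sham group, against 0.618, 0.0318 and 0.110 FPKM in the infarct group. Summed over the 15 markers, the level was 207 to 611 FPKM in the sham group, against 106 to 118 FPKM in the infarct group. Most of the infarct sum was Eng, the gene of endoglin, which stromal cells also express, and without it the sums were 114 to 502 FPKM and 15.4 to 35.8 FPKM. Tie1, Robo4 and Cldn5, genes of endothelial surface proteins, were listed at 0 in at least 1 infarct library. In RNA of a mixed culture, fewer endothelial cells and less of a transcript in each cell cannot be told apart, and the part of the endothelial transcripts in the receptor values was not tested.

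Set against the markers of the same library, the receptors were not alike. Kdr was 0.454%, 0.351% and 0.684% of the sum of 15 markers in the sham group, against 0.153%, 0.0466% and 0.0605% in the infarct group. Without Eng in the sum, Kdr was 0.822%, 0.427% and 0.968% in the sham group, against 0.453%, 0.358% and 0.391% in the infarct group, and the groups overlapped (exact two-sided permutation p = 0.2). The result for Kdr thus depended on the markers summed. Flt1 was a higher percentage of the sum without Eng in the infarct group, at 8.32%, 3.73% and 6.73% in the sham group, against 10.97%, 48.5% and 49.8% in the infarct group, with no overlap (exact permutation p = 0.1). Flt1 itself was lower in every infarct library than in any sham library, so this percentage rose only because that sum was lower by a larger factor. With Eng in the sum, Flt1 overlapped (3.06% to 4.76% and 3.70% to 7.71%, exact permutation p = 0.3). Flt4, Nrp1 and Nrp2 were higher relative to the markers in all 3 infarct libraries than in any sham library with either sum, each with an exact permutation p of 0.1, the smallest that 3 against 3 libraries allow. Their own FPKM overlapped between the groups, while both marker sums were lower in every infarct library than in any sham library. A gene with a level FPKM would be higher by this measure too, so these ratios are a description and no test of the receptors.

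**Figure D2:**
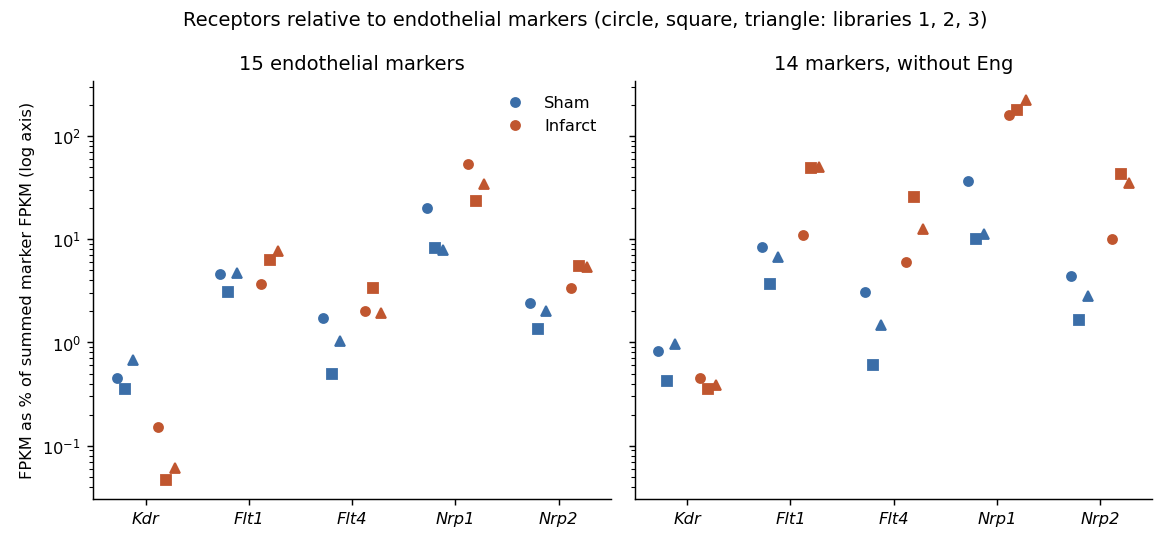
Receptor and neuropilin FPKM as a percentage of the summed FPKM of endothelial markers in the same library, on a log axis, for 15 markers (left) and without Eng (right), with 1 point per library. Kdr lies lower in the infarct libraries on the left and overlaps on the right, where it is 0.358% to 0.968%, while Flt4, Nrp1 and Nrp2 lie higher in the infarct libraries in both panels. Both marker sums were themselves lower in the infarct libraries.

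The makeup of the receptor pool differed with these levels. The summed FPKM of Kdr, Flt1 and Flt4 was 13.97, 23.9 and 28.2 in the sham group, against 6.22, 11.5 and 11.03 in the infarct group. Flt1 was the main part in every library, at 73.2% ± 5.14 in sham and 69.2% ± 8.87 in infarct libraries. Kdr made up 6.72%, 8.97% and 10.5% of the sum in the sham group, against 2.61%, 0.480% and 0.623% in the infarct group, without overlap (exact permutation p = 0.1). There were 10.1, 8.72 and 6.96 times as many FPKM of Flt1 as of Kdr in the sham group, against 24.2, 135 and 127 times in the infarct group, the last figures resting on the few Kdr fragments there.

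Among the ligands, Vegfa was abundant in both groups and did not separate them. Vegfa (chromosome 17, 46016993 to 46032369, minus strand) was at 71.1, 41.3 and 79.0 FPKM in the sham group, against 52.3, 104 and 87.9 FPKM in the infarct group. Sham library 2 and infarct library 1 were the low libraries of their groups, and the groups overlapped. The change was 0.34 with a 95% interval from -0.42 to 1.10 (adjusted p = 1.00 by limma). Sham and infarct libraries could thus differ by as much as the interval spans, and no difference was detectable at this number of libraries. The authors' deposited q-value was 0.497.

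Pgf, the placental growth factor gene (chromosome 12, 85166635 to 85177790, minus strand), was the ligand gene whose groups did not overlap. It was at 2.54, 2.53 and 4.09 FPKM in the sham group, against 0.694, 0.788 and 0.808 FPKM in the infarct group. The infarct values lay close together and every one was below 1 FPKM, so Pgf entered the test through the sham group alone and had to differ. The sham mean was 4.0 times the infarct mean (3.05 ± 0.900 against 0.763 ± 0.0610 FPKM), and 3.32 to 4.34 times when single libraries were left out. Its change of -1.18 (SE 0.178) had an adjusted p of 0.301 by limma over 12720 genes. The authors' deposited table called it with a q-value of 0.00178. About 33, 32.3 and 37.1 fragments stood behind the infarct values.

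Vegfb and Vegfc did not differ between the groups beyond their spread. Vegfb (chromosome 19, 6982473 to 6987651, minus strand) was at 10.2 to 12.4 FPKM in sham and 10.7 to 11.6 FPKM in the infarct group, the narrowest range among the 9 genes relative to its mean, and its change of 0.01 had a 95% interval from -0.24 to 0.26. Vegfc (chromosome 8, 54077606 to 54187096, plus strand) was at 6.45, 2.30 and 4.66 FPKM in sham and 4.14, 4.13 and 5.78 FPKM in the infarct group. The change was 0.12 (95% interval -0.59 to 0.83), with sham library 2 the lowest of the 6. Vegfd, the other ligand gene of the family, was not among the 9 but was as abundant as Vegfa. It was at 122, 44.8 and 88.9 FPKM in sham and 52.7, 80.1 and 80.1 FPKM in the infarct group (change -0.17, adjusted p = 1.00 by limma). Its lowest sham value was in the library that also held the lowest Vegfa and Vegfc.

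Of the summed FPKM of the 4 ligand genes, Vegfa supplied 76.8% ± 3.50 in sham and 82.2% ± 5.19 in infarct libraries, and the groups overlapped (exact permutation p = 0.3). Pgf supplied 2.81%, 4.46% and 4.09% in the sham group, against 1.02%, 0.659% and 0.762% in the infarct group (exact permutation p = 0.1). With Vegfd in the sum, Vegfd took 44.1% to 57.5% in sham and 40.1% to 43.5% in infarct libraries, and the share of Vegfa was then 33.5% to 41.8% and 43.3% to 52.1%, both without overlap (exact permutation p = 0.1 each). Shares of 1 sum move against each other, so these are not separate results.

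**Figure D3:**
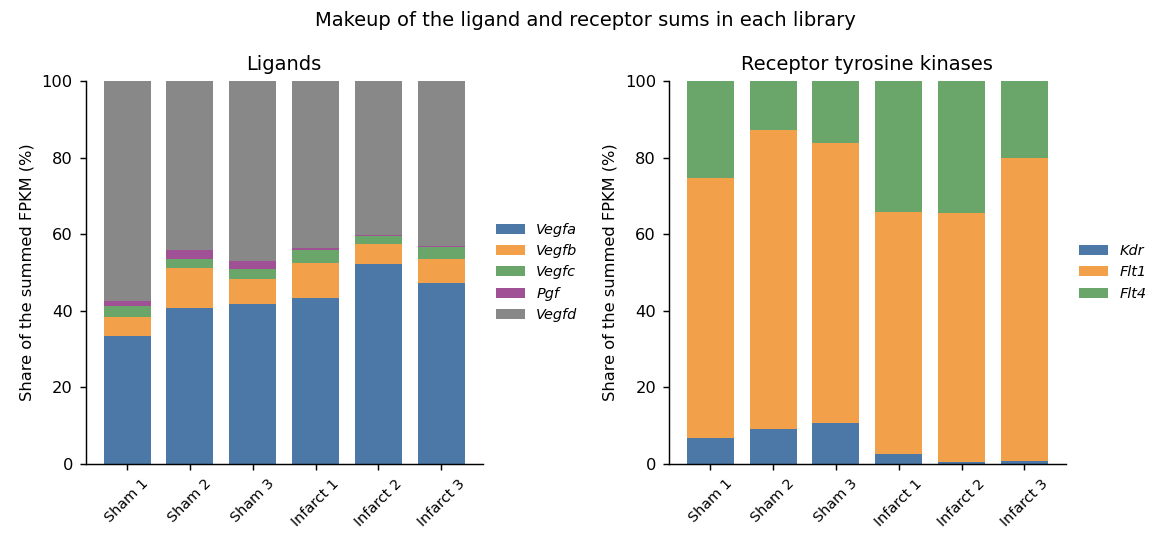
Share of each gene in the summed FPKM of the ligands with Vegfd (left) and of the receptor tyrosine kinases (right), with 1 bar per library. Vegfa and Vegfd make up most of every ligand bar, Flt1 most of every receptor bar, and the Kdr part is 6.72% to 10.5% in the sham and 0.480% to 2.61% in the infarct libraries.

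The neuropilin genes had higher mean levels than Kdr and Flt4 and overlapped between groups. Nrp1 (chromosome 8, 128358604 to 128503363, plus strand) was at 41.6, 50.7 and 34.5 FPKM in the sham group, against 56.7, 27.7 and 39.2 FPKM in the infarct group. The highest and the lowest of these 6 values were both in the infarct group. The change was -0.08 with a 95% interval from -0.70 to 0.55. Nrp2 (chromosome 1, 62703285 to 62818695, plus strand) was at 5.04, 8.21 and 8.71 FPKM in the sham group, against 3.57, 6.53 and 6.18 FPKM in the infarct group, with sham library 1 below 2 of the infarct libraries. Its change was -0.38 (95% interval -0.99 to 0.23, adjusted p = 1.00 by limma), and the authors' deposited q-value was 0.293. An annotated antisense gene and other short gene models lie within the Nrp2 locus, and a microRNA gene lies within that of Nrp1. How much of these values they affect was not measured.

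**Figure D4:**
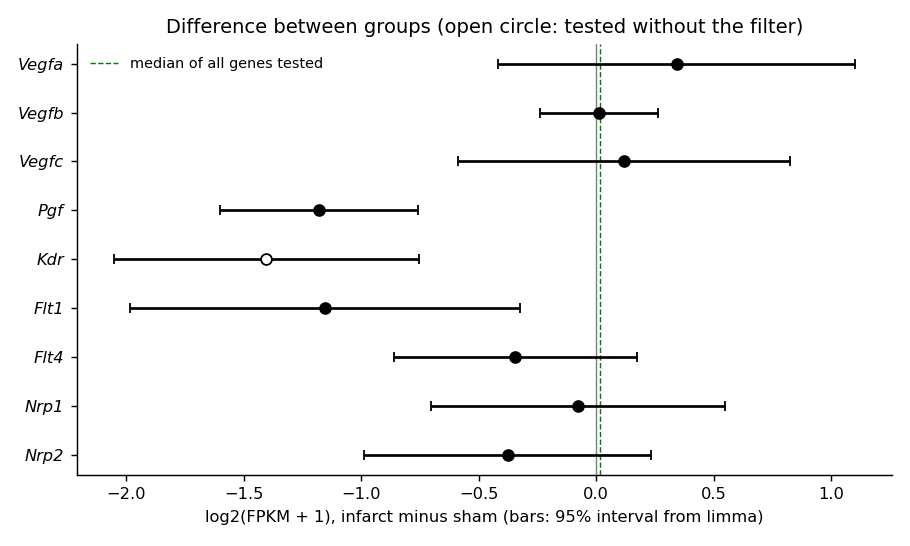
Difference of the group means in log2(FPKM + 1), infarct minus sham, with the 95% interval from limma for a single gene, not adjusted for the number of genes. Pgf, Kdr (open circle, tested without the filter) and Flt1 lie at -1.18, -1.40 and -1.15, and the intervals of the other 6 genes include 0.

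Ordered by mean level in the sham libraries, the genes ran Vegfa, Nrp1, Flt1, Vegfb, Nrp2, Vegfc, Flt4, Pgf and Kdr, from 63.8 to 2.02 FPKM. Only Nrp1 and Flt1, and Vegfb and Nrp2, were neighbours with ranges that did not overlap. In the infarct libraries Vegfb stood above Flt1 and the rest of the order was the same, from 81.4 FPKM for Vegfa to 0.0954 for Kdr. There the neighbours Nrp1 and Vegfb, Vegfb and Flt1, Vegfc and Flt4, Flt4 and Pgf, and Pgf and Kdr were apart, and the ranges of the other neighbours overlapped.

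The genes whose profile over the 6 libraries was most like those of Kdr, Flt1 and Pgf were named by the smallest root mean square difference in centred log2(FPKM + 1), over about 11038 protein-coding genes. Kdr was nearest to Sh3tc1 (0.150), Robo4 (0.152), the gene of an endothelial guidance receptor, and Sox7 (0.181), an endothelial transcription factor gene. Flt1 was nearest to Bmx (0.216), the gene of a cytoplasmic tyrosine kinase, Ecscr (0.240), an endothelial surface protein gene, and Ramp2 (0.253), the gene of a partner of the adrenomedullin receptor. Pgf was nearest to the tetraspanin gene Tspan18 (0.190), Trp53i11 (0.229) and Sh3tc1 (0.257). The genes compared had all passed the filter. Sh3tc1, Robo4 and Tspan18 were below 1 FPKM in every infarct library, so they passed it through the sham group alone and had to be lower in the infarct group. Their likeness to Kdr and Pgf is therefore a description only. Bmx was at 4.63, 7.06 and 12.0 FPKM in the sham group, against 2.26, 3.36 and 3.96 FPKM in the infarct group, so, like Flt1, it remained detected in the infarct group. The other 6 genes varied too little over the libraries for this comparison.

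Partners of the receptors held both lower and unseparated genes. In the gene groups that follow, a pair of values joined by "and" gives the sham mean first. Counts at an unadjusted p under 0.05 stand beside 3.58% of all genes tested by limma, 2.30% as lower. Genes called in the authors' deposited table stand beside 1.66% of 14922 genes with usable status, 1.19% as lower. Of 17 listed co-receptor and partner genes, all tested, 0 passed limma over all genes, 4 had an unadjusted p under 0.05 and were lower, and the median change was -0.22. These 4 were Cdh5, Egfl7, the gene of a matrix protein secreted by endothelium, at 42.5 ± 29.0 and 3.26 ± 2.51 FPKM, Ramp2 at 4.31 ± 1.40 and 1.04 ± 0.519, and Dab2, an endocytic adaptor gene, at 46.2 ± 7.03 and 35.5 ± 2.86. Cdh5 and Egfl7 are also among the endothelial markers. The most abundant, the tetraspanin gene Cd63, was at 250 ± 22.1 and 260 ± 3.64 FPKM. Singled out after their values were seen, Ptprb, the gene of an endothelial receptor phosphatase, was at 14.8, 40.2 and 32.5 FPKM in the sham group, against 12.0, 18.7 and 17.95 FPKM in the infarct group, and Gpc1, a heparan sulfate proteoglycan gene, was at 6.28, 7.34 and 7.30 FPKM in the sham group, against 24.96, 8.05 and 9.93 FPKM in the infarct group. All infarct values of Gpc1 lay above the sham values, by far in infarct library 1 and narrowly in the other two. The authors' deposited table called both, with q-values of 0.00178.

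The semaphorins and plexins share the neuropilins with VEGF. Of 13 such genes 10 were tested, 0 passed over all genes, 3 had an unadjusted p under 0.05 and were lower, and the median change was 0.13. Plxna2, a plexin gene, was at 15.8, 16.9 and 15.2 FPKM in the sham group, against 8.14, 9.28 and 10.8 FPKM in the infarct group (adjusted p = 0.382 by limma). Plxnd1, the gene of the plexin of endothelial cells, was at 15.02 ± 5.62 and 4.18 ± 1.22 FPKM, and Sema3f, the gene of a semaphorin that binds the Nrp2 protein, at 15.7 ± 6.98 and 5.29 ± 0.452. The authors' deposited table called these 3 and Plxna4, with q-values from 0.00178 to 0.00921. The most abundant gene of the list, Plxna1, was at 36.1 ± 2.52 and 40.2 ± 4.39 FPKM.

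Genes that relay the signal below the Kdr receptor had changes close to 0. Of 37 listed genes 34 were tested, 0 passed, 0 had an unadjusted p under 0.05, and the median change was -0.05. The smallest unadjusted p values belonged to Prkca, a protein kinase C gene, at 20.6 ± 3.89 and 16.6 ± 0.893 FPKM, Nras, a Ras gene, at 39.4 ± 3.31 and 34.6 ± 1.05, and Map2k2, a MAP kinase kinase gene, at 47.7 ± 0.609 and 52.9 ± 1.27. The GTPase gene Rac1, the most abundant, was at 274 ± 2.91 and 274 ± 15.2 FPKM. Nos3, the gene of endothelial nitric oxide synthase, did not reach the filter and was named after its values were seen. It was at 0.591, 2.04 and 2.27 FPKM in sham and 0.188, 0.0460 and 0.0616 FPKM in the infarct group, and the authors' deposited q-value was 0.00178.

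Genes known to be induced by VEGF in endothelial cells held both lower and higher members. Of 21 listed genes 19 were tested, 0 passed, 2 with an unadjusted p under 0.05 were lower and 1 was higher, and the median change was -0.07. Angpt2, the gene of angiopoietin 2, was at 7.61 ± 1.28 and 2.64 ± 1.55 FPKM, and Apln, the gene of apelin, at 13.4 ± 4.65 and 5.91 ± 1.37. F3, the gene of tissue factor, was at 10.2, 8.40 and 5.40 FPKM in the sham group, against 26.2, 25.02 and 12.5 FPKM in the infarct group (change 1.27, adjusted p = 0.737 by limma), so that every infarct library lay above every sham library. The authors' deposited table called Angpt2, Apln and F3, and 3 more that are named after their values were seen. Dll4, the gene of a Notch ligand of sprouting vessels, was at 0.694 ± 0.422 and 0.0302 ± 0.0220 FPKM, Cxcr4, a chemokine receptor gene, at 0.847 ± 0.761 and 0.108 ± 0.0307, and Adamts9, a matrix protease gene, at 7.36 ± 1.94 and 11.8 ± 5.04. Egr1, an immediate early gene and the most abundant of the list, was at 89.9 ± 19.8 and 74.4 ± 18.01 FPKM.

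Around Vegfa itself, little separated the groups. Of 18 listed regulators of its transcription and mRNA 17 were tested, 0 passed and 1 had an unadjusted p under 0.05, Zfp36, the gene of a protein that destabilizes mRNA, at 35.7 ± 4.66 and 28.6 ± 2.56 FPKM. The hypoxia factor degradation gene Vhl was at 6.37 ± 0.655 and 7.78 ± 1.28 FPKM, Zfp36l1, a relative of Zfp36, at 50.7 ± 7.73 and 57.0 ± 1.95, and the RNA-binding protein gene Hnrnpl, the most abundant, at 177 ± 37.5 and 179 ± 23.3. The median change was 0.01. Of 23 genes of matrix and enzymes that hold, release or process the ligands, 20 were tested, 0 passed, 0 had an unadjusted p under 0.05, and the median change was 0.05. Sdc1, a syndecan gene, was at 42.7 ± 3.01 and 53.3 ± 9.77 FPKM, Plat, the gene of tissue plasminogen activator, at 37.2 ± 4.14 and 46.4 ± 7.79, and Thbs2, a thrombospondin gene, at 14.5 ± 4.78 and 21.2 ± 5.13. Ctgf, the gene of a matricellular protein that binds VEGF, was at 785 ± 132 and 761 ± 263 FPKM.

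**Figure D5:**
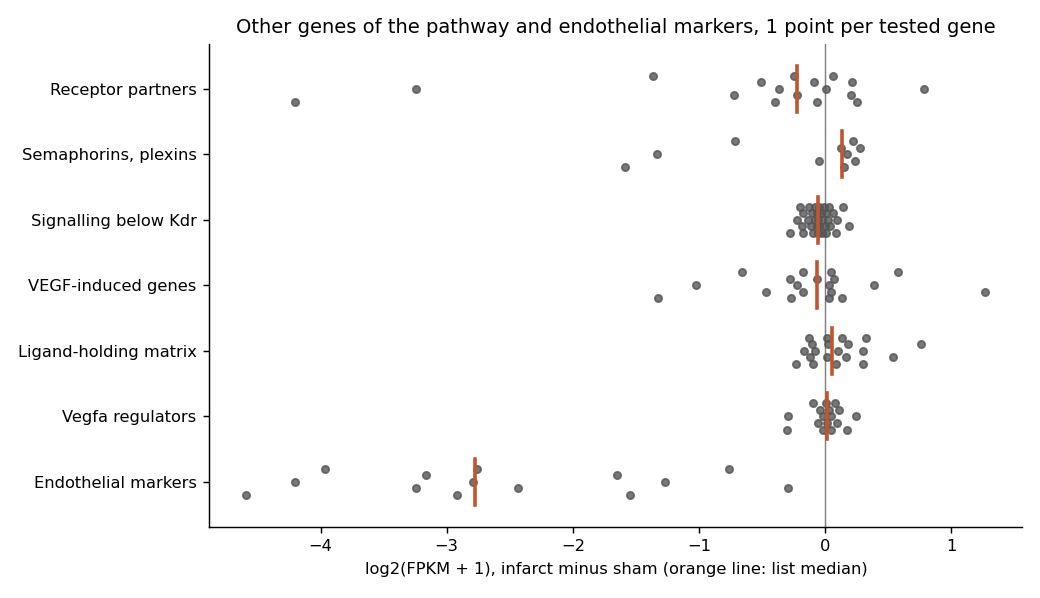
Change in log2(FPKM + 1), infarct minus sham, of each tested gene of the listed pathway groups and of the endothelial markers, with an orange line at the median of each list. The pathway medians lie between -0.22 and 0.13, and that of the endothelial markers, some of which entered the test through the sham group alone, at -2.78.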

How the data were processed

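Total RNA of 6 samples was depleted of ribosomal RNA and sequenced from both ends with a directional library, per the labels' protocols. Trimmomatic 0.36, HISAT2, SAMtools, Cufflinks, StringTie, Cuffdiff and the build GRCm38 are named in the submitters' processing notes, without roles. No annotation version is given in the sources used here. FPKM per library were deposited, with p-values and q-values of the authors' own comparison, per the file headers. The numbers of the infarct columns match no infarct sample, so these columns stand for the group, under their own numbers.

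The 14 entries with too many fragments to estimate were left out, and entries of 1 symbol were summed (110 symbols). The groups were compared two-sided with limma 3.58.1 (trend on mean level; R 4.3.3), using log2(FPKM + 1) values of the genes that reached 1 FPKM in 3 or more of the 6 libraries. P-values were adjusted by Benjamini-Hochberg and judged at 0.05. This scale understates changes of low genes. Ratios and shares were compared by exact permutation over libraries. Python 3.11.15 was used. The limma test was also run on simulated, independent normal values with known changes. No filter was applied to them, and the only outcome required was recovery of most genes with the largest change. That run therefore does not cover genes near the filter or smaller changes.

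The table holds no counts. In genes with 1 annotated transcript (GENCODE M21) of 2000 to 12000 nt, less 250 nt for the fragment, 97.7% to 98.5% of values under 5.5 steps lay within 0.1 of a whole number of steps, from which depth and fragments were estimated.

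The members and gene lists were chosen with earlier results of these data known. All 9 members were named, from each list the 3 genes with the smallest p and the most abundant, endothelial and lymphatic markers freely, and the 3 most alike genes of members with a centred SD over 0.5.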

Additional observations from a re-analysis of the deposited data

How the results depend on the processing

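No member and no listed pathway gene passed limma under any alternative in which it was fitted (quantile or median scaling, pseudocounts of 0.1 and 0.01, no filter, a filter of 5 FPKM, no trend, each library left out). Kdr was not fitted with median scaling, and neither Kdr nor Pgf with the filter of 5 FPKM. In the alternatives fitted for each, Kdr, Flt1 and Pgf had a negative change, with adjusted p of 0.0815 to 0.981, 0.423 to 1.00 and 0.201 to 0.837. The lowest value for Kdr was without sham library 1. Kdr was below the filter, so its alternatives were chosen after seeing the data, and its change reached -4.25 with a pseudocount of 0.01. Changes near 0 turned sign: Vegfb with median scaling (-0.0032) and quantile normalization (-0.0023), and, with single libraries left out, Vegfb (-0.043 to 0.090), Vegfc (-0.20 to 0.38) and Nrp1 (-0.33 to 0.17). Relative to endothelial markers Kdr went from -2.66 to 0.22 (log2, infarct minus sham) when Eng, Ecscr and Tek were left out of the sum, a choice made after seeing the data. The shares of Vegfb (-4.19 to 0.22 percentage points) and Vegfc (-0.91 to 0.63) turned with single libraries left out, and that of Vegfc (0.28) with Vegfd in the sum. The median change of VEGF-induced genes was -0.17 with a filter of 5 FPKM, -0.17 with no filter and -0.22 to 0.080 with libraries left out. That of semaphorins and plexins was -0.026 with no filter and -0.0063 to 0.16 with libraries left out, and that of receptor partners -0.30 to -0.10. Over all genes 1 was called lower and 2 higher. Lower calls were 0 with no filter or with pseudocounts of 0.1 or 0.01, and 0 to 12 with libraries left out, 12 of them without sham library 1. Higher calls were 1 with no filter and 1 to 2 with libraries left out. The causes were not tested.

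No paired analysis was possible because the infarct columns carry numbers that do not match those of the infarct samples, so no library can be tied to a number shared with the sham group.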

Other observations

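The balance of the 2 abundant ligand genes was looked at after their values were seen. Vegfd stood at 1.72, 1.09 and 1.13 times the FPKM of Vegfa in the sham group, against at 1.01, 0.770 and 0.911 times in the infarct group, so that every infarct ratio lay below every sham ratio (exact two-sided permutation p = 0.1, the smallest 3 against 3 libraries allow). Vegfa exceeded Flt1 by 7.49, 2.21 and 3.82 times in sham and by 13.3, 13.9 and 10.03 times in infarct libraries (exact permutation p = 0.1). Both ratios were picked from several with the data in view.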
